A study of Mus musculus with 8 samples.

Results

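The Myeloid cells are the cells that the deposited annotation names Myeloid in a single-cell study of the embryonic aorta-gonad-mesonephros region (AGM), and they numbered 2397 of 15168 cells. The study sorted CD31+ cells of mouse embryos at embryonic day 10.5 and read RNA together with 6 antibody tags in each cell (CITE-seq). Of 8 libraries, 5 came from WT embryos (strain given as C57BL/6, WT 1 to WT 5) and 3 from Meis1-flox/VE-Cre embryos (Mff_Cre 1 to Mff_Cre 3), in which Cre under the VE-cadherin promoter removes floxed Meis1 in endothelium and in what descends from it. The paper's name for the VE-Cre line denotes a mixed strain background, so background may differ between the groups. Each library pooled 2 to 5 embryos, so a library is a pool and not an animal. WT 1 to WT 5 contributed 282, 355, 35, 178 and 202 Myeloid cells and Mff_Cre 1 to Mff_Cre 3 contributed 299, 642 and 404.

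Myeloid cells of the midgestation embryo are phagocytes and their precursors. Macrophages of this stage descend largely from yolk sac progenitors, take up dying cells and differentiate in each tissue, whereas granulocytes store proteases and antimicrobial proteins in granules and mast cells store their own proteases and histamine. PU.1, the product of Spi1, is the transcription factor that all of these lineages require, and the receptor of macrophage colony-stimulating factor, Csf1r, sustains macrophages.

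The libraries differed in depth, and the difference largely followed genotype. Summed over all cells, the libraries held 20484881 to 79429129 UMIs (unique molecular identifiers, each counted once per captured transcript end). The median UMIs per Myeloid cell was 42006 to 54523 in WT 1 to WT 4, 25063.5 in WT 5, and 14824 to 25089.5 in Mff_Cre. Ighm was counted 164 to 2006 times over all cells of each of WT 1 to WT 4 and 0 times in WT 5 and in every Mff_Cre library, and Trbc2 behaved alike. WT 5 therefore stood with the Mff_Cre libraries in depth and in these 2 genes, and its cell names begin with Mf, unlike those of the other WT libraries. WT 4 had no tag counts, and CD44 was tagged only in WT 5 and Mff_Cre. Across libraries, 33 cell barcodes occurred in more than 1 library, with 66 cells, 10 of them Myeloid, and no shared barcode was Myeloid on both sides.

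The first comparison asked whether the Myeloid label holds against the markers, and all 5 genes given for it had their highest mean there, though S100a8 was near 0 in some libraries. Levels are CPM, the counts of a gene scaled by the total count of the summed cells of a type in a library. Since each transcript contributes its 3′ end, they do not scale with transcript length. The clusters were drawn by the authors from this RNA, so these levels are a description and were not tested. Spi1 stood at 394.8, 399.9, 329.2, 387.4 and 290.8 CPM in WT 1 to WT 5 and at 388.1, 435.4 and 346.3 CPM in Mff_Cre 1 to 3. Csf1r stood at 222.1, 214.7, 154.5, 158.3 and 124.8 CPM in WT and at 159.6, 206.7 and 146.8 CPM in Mff_Cre. Both genes were present in every library at levels that differed by less than 2-fold among libraries, and the groups overlapped.

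Lyz2, the lysozyme of phagocytes, had 452.3, 421.6, 395.5, 322.1 and 212.4 CPM in WT and 672.3, 737.3 and 539.2 CPM in Mff_Cre. C1qa, a chain of the complement opener C1q that macrophages make, had 441.6, 412.6, 205.9, 218.5 and 137.0 CPM in WT and 288.3, 339.8 and 215.6 CPM in Mff_Cre. The Mff_Cre libraries all lay above the WT libraries in Lyz2 and inside their range in C1qa.

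S100a8, a calcium-binding protein abundant in neutrophils, varied most. It had 205.9, 179.2, 0.0, 0.2 and 19.03 CPM in WT and 486.4, 431.1 and 271.8 CPM in Mff_Cre, so WT 3 and WT 4 were at or near 0. EMP, the erythro-myeloid progenitors, ran from 0 to 581 CPM of the same gene, with a mean of 126 CPM beside 199 CPM in Myeloid cells. When each cell was thinned to 5000 UMIs, S100a8 was detected in 5.77% of Myeloid cells, and in 9.76% without thinning. Spi1 was detected in 83.7% of thinned Myeloid cells, Lyz2 in 71.5%, Csf1r in 59.2% and C1qa in 50.4%. The endothelial cells, which should lack them, showed each of the 5 genes in 0.396% to 0.765% of thinned cells. Thinning left out 5 Myeloid cells under 5000 UMIs, and the median depth before thinning was 25445 UMIs for Myeloid and 13693 for vEC_1, the largest endothelial cluster.

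**Figure D1:**
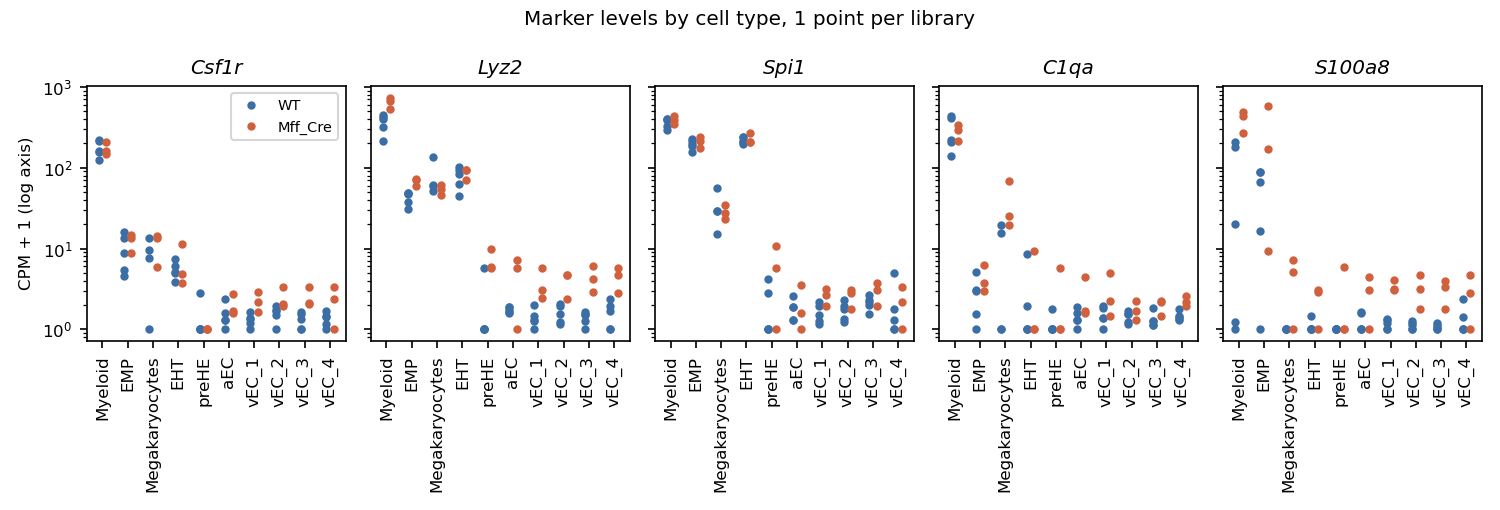
CPM + 1 on a log axis of the 5 given markers in the 10 annotated cell types, with 1 point per library of at least 10 cells of that type, WT in blue and Mff_Cre in orange. Csf1r, Lyz2, Spi1 and C1qa are highest in Myeloid cells, Spi1 is shared with EMP and EHT, and S100a8 is as high in some EMP libraries as in Myeloid cells.

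The genes most particular to the Myeloid cells were those of a phagocyte. The 15 genes with the largest ratio of Myeloid CPM to the highest of the other 9 cell types, among 2837 genes of at least 50 CPM, were Pld4, Ly86, Fcgr1, Ctss, Cybb, Aif1, C1qb, C1qc, Fcrls, Lpl, Csf1r, Trem2, Cx3cr1, Ifi30 and C1qa. The ratio, with 1 CPM added to both sides, ran from 25.2 for Pld4, an endolysosomal nuclease, to 13.1 for C1qa. Ly86, a partner of a Toll-like receptor homologue, had 256 ± 83.5 CPM (SD, n = 8) against at most 9.86 CPM in another type. Fcgr1, the high-affinity receptor for IgG, had 100 ± 22.0 CPM against at most 3.64 CPM. Cx3cr1, the fractalkine receptor, had 420 ± 55.5 CPM against at most 27.4 CPM, and C1qb had 749 ± 216 CPM against at most 41.7 CPM. For 12 of these 15 genes the next type was Megakaryocytes and for 3 it was EMP. Altogether 44 genes of at least 50 CPM exceeded every other type by 5-fold.

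Listed gene groups were read against the share of all genes that were highest in Myeloid cells, 15.2% of 7243 genes of at least 10 CPM, with a median ratio to the highest other type of 0.739. Of 12 macrophage genes, 11 were highest in Myeloid cells, and the median ratio of the list was 14.8. The exception was Cd163, a scavenger receptor of resident macrophages, at 0.129 CPM, and Folr2, another resident macrophage gene, reached only 1.503 CPM. The phagocytic receptor list, which holds the C1q chains, Trem2 and the signalling adaptor Tyrobp (1035 CPM), had 8 of 10 genes highest in Myeloid cells. Lysosomal genes had 10 of 12, among them the cathepsins Ctsb (530 CPM) and Ctsz (569 CPM), while Ctsl and Hexa were higher in preHE and Megakaryocytes.

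Subunit genes of the NADPH oxidase, which makes superoxide in phagosomes, were also highest in Myeloid cells. Cyba stood at 727 CPM, Ncf1 at 137 CPM, Cybb at 92.6 CPM and Ncf4 at 89.9 CPM. Of 10 Fc and Toll-like receptors, 9 were highest there, led by Fcer1g at 1002 CPM and Fcgr3 at 174 CPM, with Fcgr2b higher in EMP as the exception. Of 8 chemokines, 7 were highest in Myeloid cells, with Ccl3 at 156 CPM, Ccl6 at 90.3 and Ccl2 at 76.7. The exception was Cxcl16, at 1.13 CPM against 17.7 CPM in preHE.

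Of 12 myeloid transcription factors 6 were highest in Myeloid cells, namely Cebpb (410 CPM), Maf (372 CPM), Spi1 (371 CPM), Zeb2 (305 CPM), Irf8 (194 CPM) and Irf5 (69.8 CPM). Gfi1 and Cebpe, which granulocyte precursors use, had 0.818 CPM and 4.14 CPM and were higher in EHT (43.1 CPM) and EMP (26.3 CPM). Cebpa had 11.1 CPM against 21.6 CPM in EMP, and Runx1 had 128 CPM against 195 CPM in EHT.

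Among the other myeloid kinds, the monocyte list gave 8 of 9 genes highest in Myeloid cells, but only 4 reached 10 CPM. Plac8 (634 CPM), Ms4a6c (153 CPM) and F13a1 (144 CPM) were abundant, and Ccr2, the receptor that brings monocytes out of marrow in the adult, had 15.3 CPM. Ly6c2, the defining surface antigen of inflammatory monocytes, had 1.06 CPM and Chil3 had 0.101 CPM. The primary granule genes of granulocyte precursors were abundant but not particular to the cluster, with 0 of 4 highest there. Prtn3, proteinase 3, had 703 ± 223 CPM against 933 CPM in EMP, and Mpo, myeloperoxidase, had 265 ± 116 CPM against 707 CPM in EMP (SD, n = 8).

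Later granulocyte genes were uneven. Of 6 secondary granule genes 5 were highest in Myeloid cells, with a sum of 101 CPM, of which Cybb, a gene that macrophages use too, made 92.6 CPM, while Camp had 3.36 CPM, Ngp 1.89 CPM and Ltf 0.178 CPM. Of 9 mature granulocyte genes 5 were highest in Myeloid cells, with a sum of 743 CPM against 423 CPM in EMP. Stfa1 (381 CPM), S100a8 (199 CPM) and S100a9 (122 CPM) made most of that sum. Retnlg and Ly6g, which mark mature neutrophils, were at 0 in the summed cells of every library. Mast and basophil genes were near absent, with 8 of 10 under 1 CPM and a summed level of 14.4 CPM. Cpa3, the mast cell carboxypeptidase, had 7.28 CPM against 137 CPM in EMP, and Hdc, which makes histamine, had 6.66 CPM against 69.4 CPM. Eosinophil genes summed to 7.85 CPM, and 0 of 5 were highest in Myeloid cells. The 7 dendritic and MHC class II genes summed to 19.6 CPM. The 6 endothelial genes summed to 198 CPM with none highest in Myeloid cells, led by Egfl7 at 99.9 CPM.

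Of 10 embryonic-type genes, Igf2bp3, an RNA-binding protein of fetal tissues, was the only one highest in Myeloid cells, at 106 CPM beside 93.2 CPM in vEC_3. Igf2bp1 had 114 CPM and Lin28b 29.6 CPM. The 10 G2/M genes summed to 2529 CPM and the 10 S phase genes to 1466 CPM, and 1 and 0 of them were highest in Myeloid cells. Both sums lay inside the range of the other cell types.

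The upstream sequences of 5 genes are shown for the letters GAGGAAGT, the core of the sequence that PU.1 binds. PU.1 was taken because Spi1 was counted in every library and sub-cluster of these cells. Only promoters that hold the letters are shown, so the 5 genes do not represent the macrophage, granule and S100a8 signals. The letters were searched on both strands of the 250 bases before each gene start in RefSeq promoters of build GRCm38.p6, and capitals mark them, written ACTTCCTC where they lie on the other strand. The windows were Elane chr10:79886201-79886260, Prtn3 chr10:79879546-79879605, Mpo chr11:87793534-87793593 and S100a8 chr3:90668873-90668932 on the plus strand and C1qc chr4:136893076-136893135 on the minus strand, each 5′ to 3′ in the direction of the gene.
C1qc: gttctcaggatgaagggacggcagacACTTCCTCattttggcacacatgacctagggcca
S100a8: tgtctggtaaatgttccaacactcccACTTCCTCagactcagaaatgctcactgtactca
Mpo: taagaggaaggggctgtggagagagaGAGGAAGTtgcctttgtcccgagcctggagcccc
Elane: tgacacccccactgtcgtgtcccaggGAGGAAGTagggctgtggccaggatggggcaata
Prtn3: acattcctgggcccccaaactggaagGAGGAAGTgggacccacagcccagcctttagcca

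The letters occurred in 2.44% of 32851 promoters. Promoters were found for 150 of 191 listed genes, and 10 of these held the letters, namely C1qc, Elane, Fcgr4, Ly6c2, Ly6g, Mmp8, Mpo, Pf4, Prtn3 and S100a8. Of the primary granule genes 3 of 4 held them, of the macrophage genes 1 of 9, and of the endothelial genes 0 of 4. A match is a run of letters and not a measured site, and the letters also lie before Ly6g, which was not detected in the Myeloid cells.

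Clusters were drawn from RNA only, so the antibody tags gave a test of Myeloid cells against other types. The tags placed the Myeloid cells apart from EMP by more CD45-2 and less CD41, CD43 and CD117-c-kit. CD45-2, the pan-leukocyte antigen, had a mean count per Myeloid cell of 922.1, 954.4, 485.2 and 44.1 in WT 1, 2, 3 and 5 and of 75.7, 222.0 and 28.5 in Mff_Cre 1 to 3. EMP of the same libraries had 170.4, 181.9, 91.8, 11.2, 52.0, 21.5 and 9.36. Myeloid cells were higher in 7 of 7 libraries, and the mean log2 ratio was 2.10 ± 0.87 (SD, n = 7; exact sign-flip test over libraries, two-sided, adjusted p = 0.0216 over 18 comparisons).

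CD43, a sialoglycoprotein of blood cells, was lower in Myeloid cells than in EMP in 7 of 7 libraries, with a mean log2 ratio of -0.81 ± 0.18 (SD). CD41, the integrin of megakaryocytes and early blood progenitors, had a mean log2 ratio of -0.93 ± 0.37 and CD117-c-kit, the stem cell factor receptor, one of -0.80 ± 0.39, both lower in 7 of 7 libraries. CD27 was higher in 7 of 7, at 0.59 ± 0.34. Each of these reached the smallest p that 7 libraries allow, 0.0156 in the exact permutation of signs, which is 0.0216 after adjustment.

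Against Megakaryocytes, CD41 was lower by a mean log2 ratio of -4.46 ± 0.48 and CD45-2 higher by 2.34 ± 0.99 in 7 of 7 libraries (SD, n = 7; exact test, adjusted p = 0.0216 for each). CD117-c-kit was lower in 6 of 7 libraries, at -0.49 ± 0.39, with an adjusted p of 0.0402 by the same exact test. The adjusted p was 0.0402 without WT 5 and 0.0804 without any other single library. Against endothelial cells, CD43 was higher by 4.17 ± 1.14, CD45-2 by 3.43 ± 0.96 and CD41 by 2.75 ± 0.39 in 7 of 7 libraries. CD27 did not pass against endothelial cells, at 0.46 ± 0.57 and higher in 4 of 7 libraries.

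CD44, an adhesion receptor for hyaluronan, was read in 4 libraries, where the smallest p is 0.125. Its mean log2 ratio was 6.07 ± 0.25 against endothelial cells, 2.05 ± 0.12 against Megakaryocytes and 0.87 ± 0.31 against EMP, higher in 4 of 4 libraries in each. In all, 14 of the 18 tag comparisons, 77.8%, passed an adjusted p of 0.05. On centred log ratios, which set each tag against the other tags of the cell, CD41, CD117-c-kit and CD27 turned lower than in endothelial cells.

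**Figure D2:**
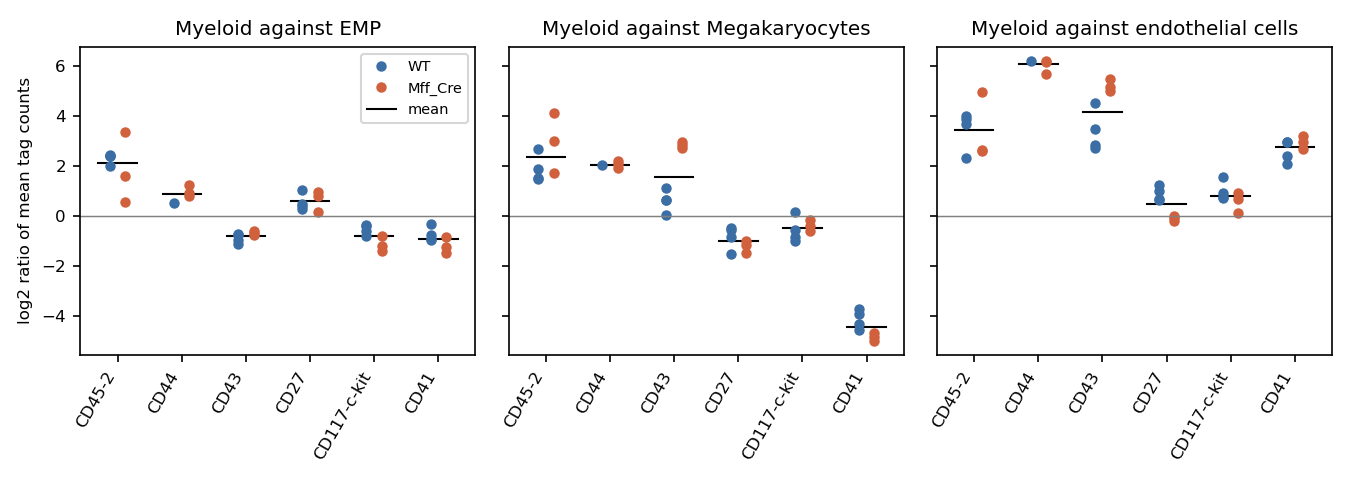
The log2 ratio of the mean tag count per cell in Myeloid cells to that in EMP, Megakaryocytes or endothelial cells of the same library, with 1 point per library and the mean as a line. CD45-2 and CD44 lie above 0 in each panel, and CD41 lies near -4.5 against Megakaryocytes.

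To see which myeloid kinds the cluster mixes, its 2392 cells of at least 5000 UMIs were thinned to that depth, centred by library and clustered again, which gave 9 sub-clusters numbered 0 to 8 by size. Their leading genes are what defined them and are given as a description. A kind was named by judgement from the listed markers and the leading genes. Sub-clusters 1, 2 and 6 were macrophage-like and sub-cluster 8 was granulocyte-like. Sub-cluster 4 carried erythroid and progenitor messages, and sub-cluster 5 endothelial ones. No sub-cluster was named monocyte or mast, though sub-cluster 7 had 8 of 9 monocyte genes above the other Myeloid cells.

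Sub-cluster 0, with 676 cells or 28.3%, was led by Cd69, Bex6, Hp, Prtn3, Hspa1a, Serpinb1a, Hspa1b, Gria3, Mpo and Ccnd2. Its Mpo level was 402 CPM, against 201.1 CPM in the other Myeloid cells, its macrophage genes summed to 1210 CPM, the lowest of the 9, and it stays unnamed. Sub-cluster 3, with 321 cells or 13.4%, was led by Mcemp1, Stfa1, Lyz2, C1galt1c1, Ifitm6, Lgals3, Anxa1, Napsa, Hp and Msrb1. Lyz2 reached 1355 CPM there, but Ly6c2 had 0.851 CPM and Chil3 was at 0, so it too stays unnamed although Plac8 (947 CPM) was high.

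Macrophage-like cells formed sub-clusters 1, 2 and 6. Sub-cluster 1, with 576 cells or 24.1%, had 12 of 12 macrophage genes above the other Myeloid cells and was led by Mrc1, Dab2, Ccl12, Gas6, Ccl2, Pf4, Stab1, Lyve1, Fcrls and C5ar1. Mrc1, the mannose receptor, stood at 458 CPM there and at 65.4 CPM in the rest. Sub-cluster 2, with 333 cells or 13.9%, had among its leading genes Siglech, Olfml3, Tgfbr1, Tmem119, Plxdc2, Runx3, Lair1, Pla2g7 and F11r, several of which are known from microglia. Siglech had 73.5 CPM there and 1.58 to 5.34 CPM in each of the other sub-clusters, while Mrc1 was low at 23.7 CPM. Of 12 macrophage genes, 9 lay above the other Myeloid cells in sub-cluster 2, and none was among its 10 leading genes.

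Sub-cluster 6, with 47 cells or 1.96%, was led by Fcna, Hmox1, Timd4, Slc40a1, Timp2, Nr1h3, Ccl6, Igf1, Folr2 and Crip1. Hmox1 and Slc40a1, which break down heme and export iron, stood at 3859 CPM and 549 CPM, and Timd4, a receptor for dying cells, at 132 CPM. Its primary granule genes summed to 29.9 CPM, the lowest of the 9. It occurred in WT 1, WT 2 and the 3 Mff_Cre libraries and in none of the 414 clustered Myeloid cells of WT 3, WT 4 and WT 5, which allows a share of up to 0.725% of these cells by counting error.

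Sub-cluster 8, with 21 cells or 0.878%, was granulocyte-like. It was led by S100a9, S100a8, Gm5483, Stfa3, BC100530, Stfa2l1, Camp, Stfa2, Pglyrp1 and Ngp, and 6 of 6 secondary granule genes and 4 of 4 primary granule genes lay above the other Myeloid cells. S100a8 stood at 16575 CPM there, and these 21 cells held 78.0% of all S100a8 UMIs of the clustered Myeloid cells and 93.5% of those of S100a9. Retnlg and Ly6g were at 0 in it. Of 5 eosinophil genes, 5 also lay above the other Myeloid cells in sub-cluster 8. They summed to 192 CPM, with Prg2 at 141 CPM. Sub-cluster 7, with 29 cells or 1.21%, was led by Ifi27l2a, Wfdc17, Cxcl2, Spp1, Isg15, H2-Eb1, H2-Aa, Prg4, Cxcl10 and Irf7, which include interferon-response and MHC class II genes. Of 9 monocyte genes, 8 lay above the other Myeloid cells there, and their sum of 2130 CPM was the highest of any sub-cluster. Ly6c2 was also highest there, at 77.4 CPM, and Chil3 stood at 6.67 CPM. No listed monocyte gene was among its leading genes, just as no listed macrophage gene was among those of sub-cluster 2. Of 7 dendritic and MHC class II genes, 5 also lay above the other Myeloid cells in sub-cluster 7. It stays unnamed by judgement.

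Erythroid and progenitor messages gathered in sub-cluster 4 and endothelial messages in sub-cluster 5. Sub-cluster 4, with 237 cells or 9.91%, was led by Hbb-y, Hba-x, Hba-a1, Cpa3, Tagln, Hbb-bh1, Car2, Acta2, Adgrg1 and Kit, with 7 of 7 erythroid and 6 of 6 progenitor genes above the other Myeloid cells. It had the highest median depth, 42584 UMIs, 2 cells called doublets, and 85.0% of the Cpa3 UMIs of the clustered cells. It also held 66.8% of the Hdc UMIs, with Hdc at 33.0 CPM, beside 56.4 CPM in sub-cluster 8. Of 10 mast and basophil genes, 4 lay above the other Myeloid cells in sub-cluster 4. Ms4a2, a subunit of the IgE receptor of mast cells, was at 1.24 CPM in sub-cluster 4. No cell group carried the mast proteases Mcpt4, Tpsb2 or Tpsab1, which were at 0 in the Myeloid cells. Sub-cluster 5, with 152 cells or 6.35%, was led by Gzmg, Mest, Gzmd, Gzmf, Cldn5, Emcn, Crip2, Kdr, Col4a1 and Ramp2, and 6 of 6 endothelial genes lay above the rest.

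In sub-cluster 5, 48 of 152 cells, 31.6%, were called doublets, out of 50 such calls in all Myeloid cells. After thinning, 94 of its cells had at least 5 UMIs of the 6 endothelial genes, and 63 of these had at least 5 UMIs of the macrophage genes too. It held 68.0% of the Cdh5 UMIs and 99.2% of the Gzmd UMIs, and only 3 of its cells had at least 2 granzyme UMIs after thinning. Whether doublets account for these cells was not tested beyond the calls.

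**Figure D3:**
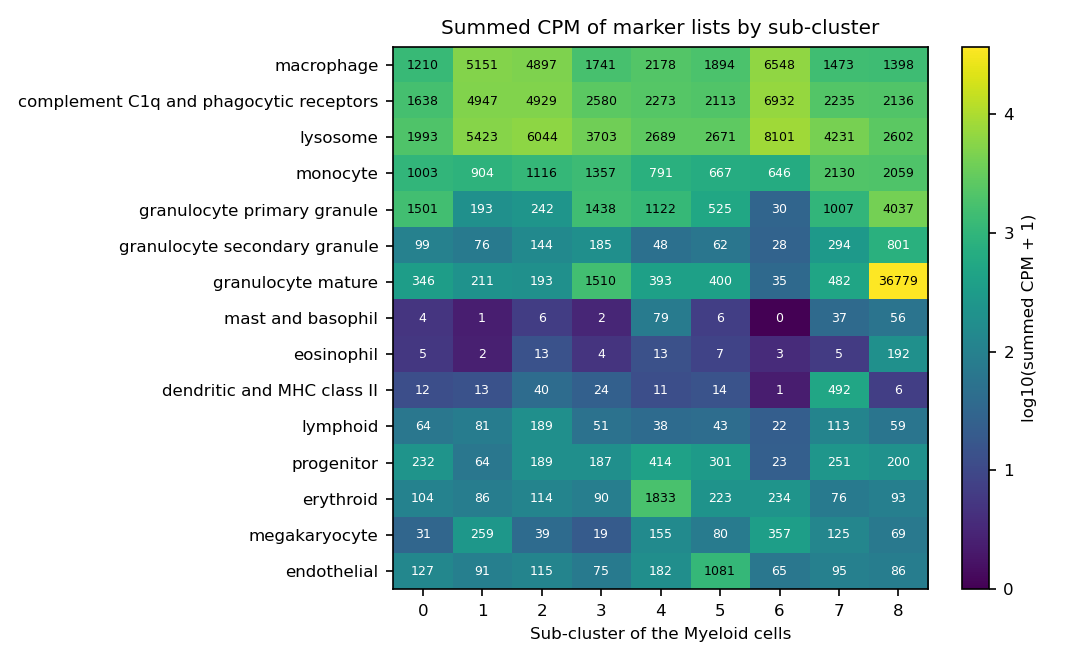
Summed CPM of the genes of 15 marker lists (rows) in the 9 sub-clusters of the Myeloid cells (columns), printed in each cell and coloured on a log10 scale. Macrophage genes are highest in sub-clusters 1, 2 and 6, granulocyte genes in sub-cluster 8, erythroid genes in sub-cluster 4 and endothelial genes in sub-cluster 5, and the mast list does not exceed 78.8 CPM.

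Macrophage and granule messages were detected together in many single cells. At 5000 UMIs per cell, 73.7% of Myeloid cells had a UMI of C1qa, C1qb or C1qc, 68.0% had one of Mpo, Elane, Prtn3 or Ctsg, and 43.7% had both. Cells with both made up 34.4% to 52.5% of the Myeloid cells of each library. Only 2.01% had neither. With single shares this high, many cells would have both even if the kinds were unrelated. The share with both is therefore a description of detection and no sign of joint expression by itself. In endothelial cells, which should lack both, the shares were 2.26% and 2.17%, with 0.0369% having both, and EMP had C1q messages in 4.15% and granule messages in 76.2%.

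The overlap was not confined to sub-clusters 4 and 5, with both kinds in 37.4% of sub-cluster 0, 39.8% of sub-cluster 1, 42.9% of sub-cluster 2 and 49.5% of sub-cluster 3. Sub-cluster 4 had the highest share, 79.7%, and sub-cluster 6 the lowest, 6.38%. Requiring at least 3 UMIs of each kind left 413 cells, 17.3% of the cells in the draw used for sub-clustering. With sub-clusters 4 and 5 left out, 13.9% still met that requirement. Of the cells of sub-clusters 0 to 3, 0 were called doublets, and whether doublets account for the overlap was not tested beyond the calls.

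**Figure D4:**
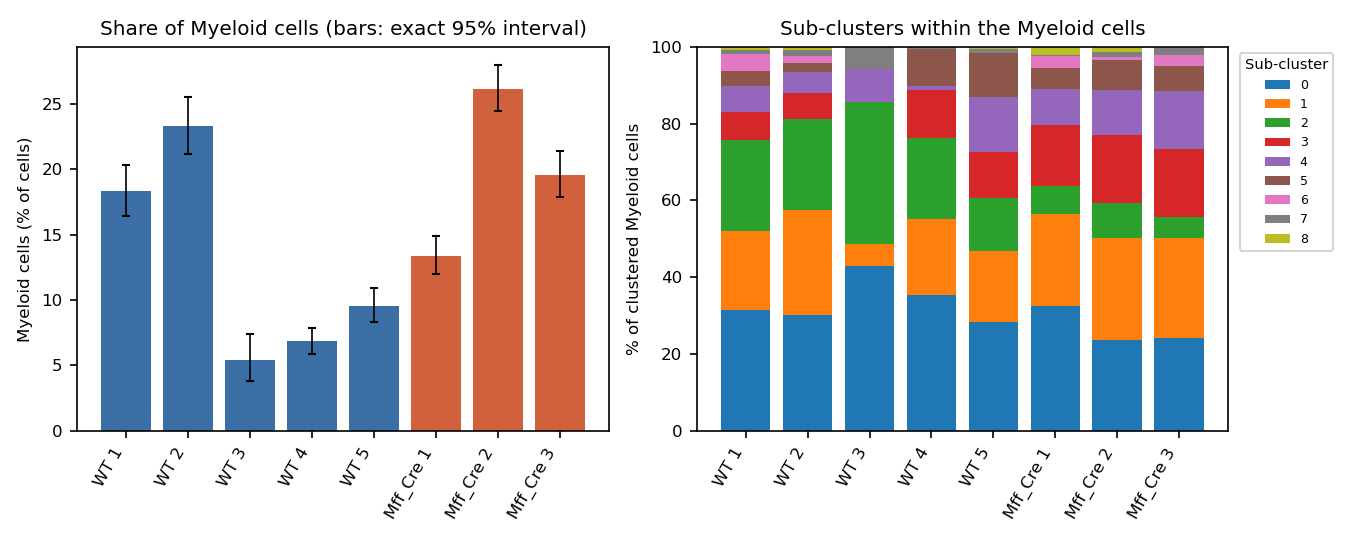
Left, Myeloid cells as a percent of all cells of each library, with exact 95% binomial intervals. Right, the 9 sub-clusters as a percent of the clustered Myeloid cells of each library. Sub-cluster 2 takes 13.9% to 37.1% in WT and 5.45% to 9.25% in Mff_Cre, and sub-cluster 3 takes 0% to 12.4% and 15.7% to 17.8%.

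The second question was whether genotype changed how many Myeloid cells there were. They made up 18.3%, 23.3%, 5.38%, 6.85% and 9.56% of the cells of WT 1 to WT 5 and 13.4%, 26.2% and 19.6% of those of Mff_Cre 1 to 3. The groups overlapped, with WT 2 above Mff_Cre 1 and Mff_Cre 3. The means were 12.7% ± 7.78 (SD, n = 5) and 19.7% ± 6.39 (SD, n = 3). Permuting the library labels often gave a difference as large as these 7.04 percentage points (exact permutation of libraries, two-sided, p = 0.214, smallest possible 0.0179). Of the blood clusters only (EHT, EMP, Megakaryocytes, Myeloid), Myeloid cells were 50.4% ± 16.4 in WT and 65.1% ± 7.97 in Mff_Cre, with the same exact p. Shares of sorted cells depend on the CD31 sort as well as on the embryo.

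The sub-clusters were not tested between genotypes, because genes that define them also differed between genotypes. Sub-cluster 2 held 23.8%, 23.7%, 37.1%, 21.3% and 13.9% of the Myeloid cells of WT 1 to WT 5 and 7.36%, 9.25% and 5.45% of those of Mff_Cre, without overlap. Sub-cluster 3 held 7.09%, 6.76%, 0%, 12.4% and 11.9% in WT and 15.7%, 17.6% and 17.8% in Mff_Cre, also without overlap, and its 0 of 35 cells in WT 3 allows a share of up to 8.57%. Sub-cluster 1 overlapped, at 5.71% to 27.3% in WT and 24.1% to 26.6% in Mff_Cre. Sub-clusters 0 and 4 to 8 overlapped as well. The shares within a library depend on each other. WT 5 lay nearest to the Mff_Cre libraries in sub-cluster 2.

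The third question was how the RNA of Myeloid cells differed between genotypes. Counts were summed over the Myeloid cells of each library and fitted with edgeR's quasi-likelihood test, and at an adjusted p under 0.1 the test called 374 of 11479 genes, 3.26%. Of all genes tested, 170 (1.48%) rose in Mff_Cre and 204 (1.78%) fell. Groups did not overlap in 10.3% of all genes tested. Meis1 itself, which the sum cannot use to check the deletion because the reads lie at the 3′ end and the deleted exon is not resolved, had 19.2, 12.7, 22.9, 19.7 and 27.6 CPM in WT and 7.78, 13.2 and 10.4 CPM in Mff_Cre. Its log2 fold change of -0.86 ± 0.25 (SE) did not pass (edgeR, adjusted p = 0.135), and the ranges overlapped. A fit with WT 5 as the only WT library was also made, since that library resembled Mff_Cre in depth. It takes its spread from the 3 Mff_Cre libraries alone and assumes that the lone WT library varies like them, so its calls hold no measure of WT variation. Meis1 had a log2 fold change of -1.31 in it.

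Among called genes without overlap and with a mean log2 CPM of at least 5, the largest rises were in Stfa1, Clec4a2, Cfp, Lgals3 and Ifitm1. Stfa1, a cathepsin inhibitor of the stefin A family, had 172.4, 301.3, 63.0, 183.0 and 218.1 CPM in WT and 670.5, 635.3 and 801.0 CPM in Mff_Cre. Its log2 fold change was 1.96 ± 0.33 (SE, edgeR, adjusted p = 0.0216). Stfa1 is a member of a family of near-identical genes, so its counts may include reads of its copies. Clec4a2, a C-type lectin of myeloid cells, had 39.9, 42.0, 7.25, 16.4 and 16.5 CPM in WT and 73.2, 84.8 and 69.8 CPM in Mff_Cre, a log2 fold change of 1.60.

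Cfp, properdin, which stabilises the alternative complement convertase, had 29.5, 32.6, 39.6, 23.1 and 23.0 CPM in WT and 76.8, 61.5 and 65.7 CPM in Mff_Cre, a log2 fold change of 1.30. Lgals3, galectin-3, had 47.2, 57.5, 49.7, 31.2 and 19.2 CPM and 109.3, 95.6 and 82.8 CPM, a log2 fold change of 1.29. Ifitm1, an interferon-induced membrane protein, had 69.4, 75.3, 79.8, 65.4 and 93.4 CPM and 171.2, 216.5 and 151.6 CPM, also at 1.29. WT 5 was the lowest WT library in Lgals3 and Cfp, the highest in Ifitm1 and between the others in Stfa1 and Clec4a2. Against WT 5 alone, with no WT spread, their log2 fold changes were 1.02 to 2.39 and all 5 were called.

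The largest falls were in Rgs1, Ccl4, Hist1h4d, Hspa1a and Tpm2. Rgs1, a regulator of G protein signalling, had 49.7, 60.6, 70.3, 58.8 and 14.9 CPM in WT and 3.57, 8.91 and 4.89 CPM in Mff_Cre, a log2 fold change of -3.03 ± 0.47 (SE, edgeR, adjusted p = 0.0154). Ccl4, a chemokine, had 108.5, 51.8, 87.0, 67.0 and 10.5 CPM and 8.54, 8.82 and 9.87 CPM, a log2 fold change of -2.75. Hist1h4d, a histone H4 gene, had 135.1, 137.2, 187.4, 110.7 and 33.3 CPM and 16.1, 17.8 and 22.6 CPM, a log2 fold change of -2.60.

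Hspa1a, an inducible heat shock protein, had 119.8, 162.7, 410.6, 223.0 and 67.4 CPM in WT and 53.6, 51.0 and 31.9 CPM in Mff_Cre, a log2 fold change of -2.05. Tpm2, a tropomyosin, had 148.7, 137.9, 167.9, 173.6 and 98.9 CPM and 30.7, 65.5 and 34.2 CPM, at -1.68. WT 5 was the lowest WT library in all 5 of these genes. Against WT 5 alone none of the 5 was called, with log2 fold changes of -1.27 for Rgs1, -0.12 for Ccl4, -0.74 for Hist1h4d, -0.50 for Hspa1a and -1.11 for Tpm2. With the median UMIs per Myeloid cell as a covariate, 2 genes in all were called, none of the 10 named genes among them. For most genes genotype and depth cannot be told apart in these libraries.

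**Figure D5:**
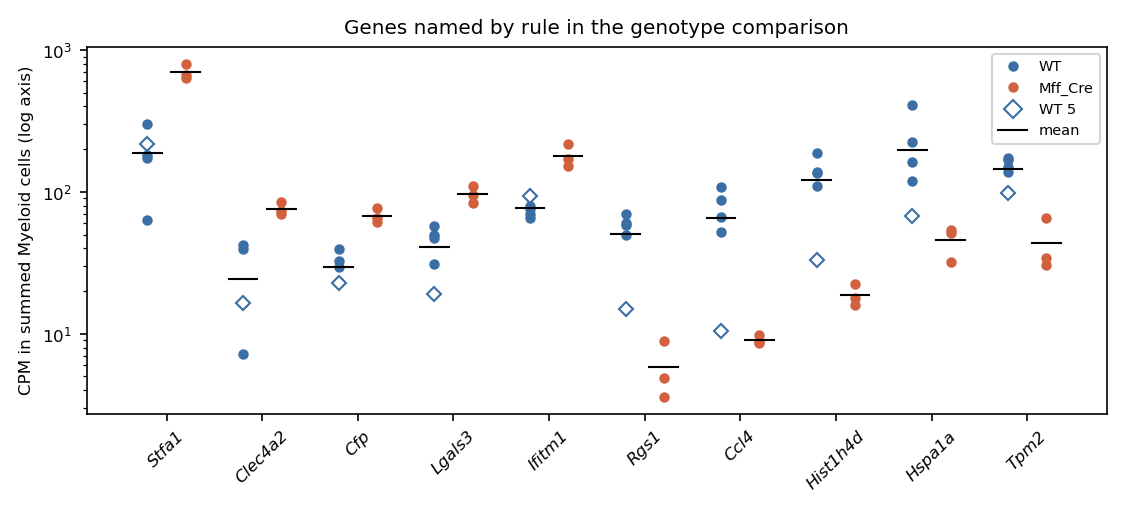
CPM on a log axis of the 10 genes named by rule, in the summed Myeloid cells of each library, with WT as blue circles, WT 5 as an open diamond, Mff_Cre in orange and group means as lines. For the 5 falls the WT 5 point lies below the other WT libraries, and for Stfa1 and Ifitm1 it does not.

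Within single sub-clusters these genes kept their direction. In the cells of sub-cluster 1 alone, Stfa1 had a log2 fold change of 2.08 and Rgs1 one of -2.72, and in those of sub-cluster 2 alone 2.60 and -2.98, each past the threshold (edgeR, adjusted p from 0.00162 to 0.0622). Rgs1 is itself high in sub-cluster 2, at 141 CPM beside 20.2 CPM in the other Myeloid cells. Its value within that sub-cluster may therefore depend on how the cells were drawn. In sub-cluster 3, which Stfa1 helps to define, Stfa1 did not pass, at 0.92 with an adjusted p of 0.188. Siglech, the first gene of sub-cluster 2, fell in the whole cluster by 1.83 on the log2 scale (edgeR, adjusted p = 0.0410), beside the lower share of that sub-cluster in Mff_Cre, and against WT 5 alone it was not called, at -0.66.

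Of 191 listed genes 163 were tested, and 11 rose and 6 fell in Mff_Cre, 10.4% beside 3.26% of all genes, although the lists were chosen with earlier results of these data known. Of the macrophage list 0 of 11 tested genes were called, at a median log2 fold change of -0.05 beside -0.01 over all genes. The values depended on the WT libraries used. Against WT 5 alone, with no WT spread, log2 fold changes were 1.11 for C1qa, 0.99 for Adgre1 and 0.97 for Mrc1. They were 0.91 for C1qc, 0.85 for C1qb and 0.78 for Aif1, and those of the other tested macrophage genes are not reported here. In the fit of all libraries, the C1q and phagocytic receptor list (0 of 10), the NADPH oxidase (0 of 5), the Fc and Toll-like receptors (0 of 10), the S phase genes (0 of 10) and the G2/M genes (0 of 10) also had no call.

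Of the 11 rises, 5 were in granulocyte lists, namely Mpo, Camp, Lcn2, Mmp9 and Stfa1. They were 1 of 3 tested primary granule genes, 2 of 3 secondary granule genes and 2 of 7 mature granulocyte genes. Of all genes tested, 1.48% rose. Mpo rose from 141.0, 177.5, 205.3, 204.8 and 192.5 CPM in WT to 416.9, 435.9 and 342.0 CPM in Mff_Cre, a log2 fold change of 1.17 ± 0.15 (SE, edgeR, adjusted p = 0.00646). Prtn3, its companion, was not called, at 0.69 (edgeR, adjusted p = 0.194). Camp and Lcn2, secondary granule genes, were called as higher. Camp had at most 0.0626 CPM in WT and 4.13 to 15.7 CPM in Mff_Cre, and Lcn2 had at most 0.0785 CPM in WT and 2.75 to 5.74 CPM in Mff_Cre. The 21 cells of sub-cluster 8 held 98.3% of the Camp UMIs and 95.2% of the Lcn2 UMIs. Sub-cluster 8 held 6 of its 21 cells in WT 1, WT 2 and WT 5 and 15 in the Mff_Cre libraries, and was absent from WT 3 and WT 4. Mmp9, a granule gelatinase, rose by a log2 fold change of 3.06, and 55.6% of its UMIs lay in sub-cluster 1.

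Single calls stood in other lists. Lyz2 rose by 0.91 ± 0.21 and Csf2ra and Csf2rb, subunits of receptors for granulocyte-macrophage colony-stimulating factor, by 1.14 ± 0.17 and 0.88 ± 0.17 (SE, edgeR, adjusted p = 0.0571, 0.0119 and 0.0344). Cpa3 rose from 0.706 to 5.34 CPM in WT to 9.18 to 18.5 CPM in Mff_Cre, and most Cpa3 UMIs lay in sub-cluster 4. Runx1 fell by 0.43 on the log2 scale, Flt3 by 3.46 and Il7r by 2.44, with 142.9 and 101.9 CPM as the group means of Runx1. Ighm passed as lower, at 79.2 to 130.2 CPM in WT 1 to WT 4 and 0 CPM in WT 5 and Mff_Cre, and so followed the set of libraries and not the genotype.

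In the macrophage-like cells alone, sub-clusters 1, 2 and 6 together, edgeR called 299 of 9604 genes, 3.11%. Of these, 80 rose (0.833% of genes tested) and 219 fell (2.28%), and groups did not overlap in 8.86% of genes. Different sub-clusters held these cells: 229 WT cells were in sub-cluster 1 and 230 in sub-cluster 2, against 347 and 103 Mff_Cre cells. Named by the same rule, Stfa1, Lgals3, Ifitm1, Cfp and Mpo were higher and Rgs1, Arl6ip5, Hist1h4d, Hspa1a and Ramp1 lower. Against WT 5 alone 4 of these 10 were not called, as Mpo went from 2.13 to 0.60, Hist1h4d from -2.63 to -1.11, Hspa1a from -2.31 to -0.57 and Arl6ip5 from -2.78 to -0.31. Rgs1 had 72.9, 92.2, 65.8, 95.6 and 28.3 CPM in WT and 5.22, 7.21 and 5.22 CPM in Mff_Cre, a log2 fold change of -3.58 ± 0.37 (SE, edgeR, adjusted p = 0.00199). Its log2 fold change against WT 5 alone, with no WT spread, was -2.24. Rgs1 is high in sub-cluster 2, which gave fewer of these cells in Mff_Cre, and the part of that mix in the fall was not tested.

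Ramp1, a partner of the calcitonin receptor-like receptor, had 50.7, 50.4, 57.4, 68.1 and 51.6 CPM and 5.22, 22.3 and 10.8 CPM, with WT 5 among the other WT libraries. Its log2 fold change was -2.03 in all libraries and -1.95 against WT 5 alone. Arl6ip5 had 151.5 to 160.3 CPM in WT 1 to WT 4, 23.3 CPM in WT 5 and 16.1 to 20.6 CPM in Mff_Cre, and so followed the set of libraries. None of the 11 macrophage genes tested in these cells was called, at a median log2 fold change of -0.03. The sub-clusters were named with the help of these same genes, so the comparison can miss a difference in them. Against WT 5 alone, again with no WT spread, log2 fold changes were 1.31 for C1qa, 1.12 for Adgre1 and 0.95 for C1qc and Mrc1. They were 0.77 for C1qb and 0.70 for Aif1, and those of the other tested macrophage genes are not reported here.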

How the data were processed

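The authors deposited 1 table of raw UMI counts of 28014 genes and 6 antibody tags in 15168 cells, made with Cell Ranger 3.0.2 against mm10 per the labels, and an annotation from their own clustering. They kept cells of over 2000 genes and under 10% mitochondrial counts, integrated libraries in Seurat and named clusters by hand. All counts were whole and none was below 0. Libraries came from the annotation, and replicates are embryo pools.

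Counts of Myeloid cells were summed per library and tested with edgeR 4.0.16 (TMM, filterByExpr, quasi-likelihood F test, genotype only, Benjamini-Hochberg, adjusted p under 0.1), with DESeq2 1.42.0 as an alternative. Sub-clusters used counts thinned to 5000 UMIs, 1000 variable genes, 15 principal components, 20 neighbours and Leiden at resolution 0.6. Doublets were called per library with Scrublet (scanpy 1.11.5), 83 of 15168 cells, and stayed in. Cells of a library are not replicates, and depth set precision: intervals cover counting error only. Alternatives were other normalizations, filters, a replicate block, depth corrections, single sub-clusters (added after seeing the data) and left-out libraries. Tests were checked on simulated data.

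Members and lists were chosen with earlier results of these data known. Named genes were the highest list members and those called, the 15 largest ratios over other types, the 10 leading genes of a sub-cluster (at least 30 CPM, 5 added), and up to 5 rises and 5 falls among called genes with mean log2 CPM of at least 5 and no overlap. Siglech and the genes of single sub-clusters were added after their values were seen. Results for some genes that these rules name are not reported here.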

Additional observations from a re-analysis of the deposited data

Results flagged for a closer look

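In 38 sets of 5 WT values tested for a library far from the others, 2 stood out at the 95% critical value of 0.71 for Dixon's ratio, and chance alone gives about 1 in 20. Sub-cluster 7 made up 5.71% of the clustered Myeloid cells of WT 3, against 0.562% to 1.41% in the other WT libraries, which is 2 of 35 cells. Ly86 stood at 176 CPM in WT 5, against 301 to 350 CPM in WT 1 to WT 4.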

How the results depend on the processing

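The count of 374 genes called between genotypes in Myeloid cells was 584 with DESeq2, 198 with cells thinned to 5000 UMIs, 640 without sub-clusters 4 and 5, 2 with median UMIs as a covariate, and 528, 45, 43 and 90 in sub-clusters 0, 1, 2 and 3 alone (settings by sub-cluster were chosen after seeing the data, and the cause of these shifts was not tested). It ranged from 44 to 1421 on leaving out 1 library, with 44, 139 and 94 without Mff_Cre replicates 1, 2 and 3, 201, 217 and 183 without WT replicates 1, 2 and 4, and 1421 without WT replicate 5. Against WT 5 alone, a fit with no WT spread, it was 253, of which 76 were among the 374. In macrophage-like cells 299 became 479 with no filter and 180 against WT 5 alone, with 24 to 959 on leaving out 1 library (24, 167 and 28 without Mff_Cre replicates 1, 2 and 3, 123, 131 and 124 without WT replicates 1, 2 and 4, 959 without WT replicate 5). With a replicate block the counts were 1360 and 717, but the numbers did not pair the libraries: same-numbered deviations correlated at -0.153, 0.118 and 0.0162. The 10 genes named in Myeloid cells kept their direction in every alternative run, but not their calls. With median UMIs as a covariate 0 of the 10 stayed called. Without Mff_Cre replicates 1, 2 and 3 it was 2, 5 and 5, and without WT replicate 4 it was 7. The share difference was 3.81 to 10.2 percentage points on leaving out 1 library. Of the 18 tag comparisons, 13 or 14 passed on leaving out 1 library, 13 on log2 counts and 12 on centred log ratios, where the values against endothelial cells turned to -1.26 for CD117-c-kit, -0.15 for CD41 and -1.31 for CD27. Between sub-clusters 0 of 54 tag tests passed, also on log2 counts or without 1 library (16 at an unadjusted exact p under 0.05, smallest adjusted p 0.105), where few libraries limit the test. Other clusterings placed 78.5% to 85.9% of cells in the same sub-cluster. WT 3 rests on 35 cells.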

Other observations

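Antibody tags took no part in the sub-clustering. Of 54 comparisons of a sub-cluster with the other Myeloid cells, 20 had the same direction in every library, over at least 5 libraries, and none passed adjustment (exact sign-flip test, smallest adjusted p = 0.105, and 16 had an unadjusted p under 0.05). Sub-cluster 4, which carried progenitor and erythroid messages, was higher than the other Myeloid cells in 6 of 6 libraries in CD117-c-kit, with a mean log2 ratio of 2.29 ± 0.41 (SD), in CD41 with 2.14 ± 0.32, in CD43 with 2.04 ± 0.27 and in CD27 with 1.31 ± 0.22. CD44 was higher in 4 of 4 libraries, with 0.91 ± 0.12, so all 6 tags were higher in this sub-cluster, which also had the highest median depth of the 9, 42584 UMIs. The part of depth in these values was not tested. Its CD45-2 was also higher in 6 of 6, with Mff_Cre 2 alone at 4.32 and the other libraries at 0.41 to 1.15. Kit RNA stood at 56.7 CPM in sub-cluster 4 and at 1.34 to 16.3 CPM in the others.

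Macrophage-like sub-cluster 1 was lower than the other Myeloid cells in 6 of 6 libraries in CD41, with -1.84 ± 0.19, in CD43 with -1.74 ± 0.47 and in CD117-c-kit with -1.30 ± 0.53. Macrophage-like sub-cluster 2 was lower in CD43 in 7 of 7 libraries, with -1.15 ± 0.33, and sub-cluster 6 in 5 of 5, with -3.04 ± 1.37. Sub-cluster 5, with endothelial messages, was higher in CD117-c-kit and CD27 in 6 of 6 libraries, with 1.08 ± 0.51 and 1.14 ± 0.44.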
